A study of Mus musculus with 7 samples.

Results

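The enhancer complex built around the H3K4 methyltransferases KMT2C (MLL3) and KMT2D (MLL4) and the H3K27 demethylase UTX was followed through the mRNA of 10 genes: Kmt2c, Kmt2d, Kdm6a (UTX), Kdm6b, Ncoa6, Paxip1, Pagr1a, Ash2l, Wdr5 and Rbbp5. They were chosen by gene symbol and were 10 of the 48440 genes listed. RNA came from LSK cells, a bone marrow (BM) fraction without lineage markers but with Sca1 and cKit, in which hematopoietic stem cells (HSCs) are found. The cells were sorted from C57BL/6 mice that had been lethally irradiated (9.5 Gy) and given unfractionated BM, and were collected 77 days after transplantation. In 4 libraries the donors were wild-type, and in 3 they carried a constitutive, endonuclease-made PROSER1 knockout (PROSER1 KO), so that the gene was targeted in all donor cells from the germline. The transplantation, the irradiation and the C57BL/6 host were common to both groups. Donor age and sex, the number of mice behind a library and any gate against surviving host cells are not given in the sources used here. The replicates are labelled biological, without saying that they were separate mice, and p-values measure the spread between these libraries.

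KMT2C and KMT2D place the single methyl group on lysine 4 of histone H3 that marks enhancers, and each works inside its own copy of a large complex. WDR5, RBBP5, ASH2L and DPY30 form a core shared by KMT2A, KMT2B, KMT2C, KMT2D and the SETD1 methyltransferases. NCOA6, PTIP (the product of Paxip1), PA1 (the product of Pagr1a) and UTX are found with KMT2C and KMT2D but not with the other enzymes of the family. UTX removes methyl groups from lysine 27, the mark of Polycomb repression, and its relative JMJD3 (Kdm6b) does the same without being a stable subunit. In blood, KMT2C, KMT2D and UTX are recurrently mutated in lymphoid and myeloid cancers, and their loss in mice alters HSC maintenance and differentiation. PROSER1, a proline- and serine-rich protein, binds TET DNA demethylases and OGT and has also been found with UTX and KMT2C/KMT2D complexes.

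Kmt2c and Kmt2d deviated together across the libraries, Rbbp5 was the only member whose groups did not overlap, and Kdm6a was the member chosen to stand for UTX. For that reason the sequences at the starts of these genes are shown, as RefSeq gives them for GRCm38.p6, from 250 bases before to 50 bases after the annotated start, on the strand of the gene and 5′ to 3′. Capitals mark the GC box GGGCGG on either strand, to which Sp/KLF zinc finger factors are known to bind. The windows lie at chr5:25498734-25499033 (minus strand, Kmt2c), chr15:98871156-98871455 (minus strand, Kmt2d), chrX:18162325-18162624 (plus strand, Kdm6a) and chr1:132477117-132477416 (plus strand, Rbbp5).
Kmt2c: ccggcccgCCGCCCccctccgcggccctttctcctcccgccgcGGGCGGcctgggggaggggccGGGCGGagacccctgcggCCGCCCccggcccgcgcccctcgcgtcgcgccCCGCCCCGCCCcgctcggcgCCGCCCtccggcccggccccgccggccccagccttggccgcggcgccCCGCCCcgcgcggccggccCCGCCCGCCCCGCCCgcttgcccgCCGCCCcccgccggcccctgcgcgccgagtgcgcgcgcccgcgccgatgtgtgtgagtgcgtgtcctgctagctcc
Kmt2d: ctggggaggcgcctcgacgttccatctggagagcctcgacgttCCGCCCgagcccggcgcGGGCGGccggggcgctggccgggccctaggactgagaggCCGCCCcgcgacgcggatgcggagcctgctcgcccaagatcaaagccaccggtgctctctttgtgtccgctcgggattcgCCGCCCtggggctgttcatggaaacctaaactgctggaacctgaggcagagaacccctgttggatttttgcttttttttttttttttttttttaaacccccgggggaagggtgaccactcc
Kdm6a: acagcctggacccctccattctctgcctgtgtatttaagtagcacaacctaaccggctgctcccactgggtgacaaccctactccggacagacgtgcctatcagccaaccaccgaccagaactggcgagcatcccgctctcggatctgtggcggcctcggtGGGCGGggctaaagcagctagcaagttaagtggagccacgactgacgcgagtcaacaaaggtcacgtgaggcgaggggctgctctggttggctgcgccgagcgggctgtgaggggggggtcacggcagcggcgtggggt
Rbbp5: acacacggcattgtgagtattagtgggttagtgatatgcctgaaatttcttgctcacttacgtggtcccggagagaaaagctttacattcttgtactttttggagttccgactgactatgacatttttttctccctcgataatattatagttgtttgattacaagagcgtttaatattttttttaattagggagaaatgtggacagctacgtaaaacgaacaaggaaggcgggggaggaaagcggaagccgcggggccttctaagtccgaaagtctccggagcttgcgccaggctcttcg

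The Kmt2c window held 56 CpG dinucleotides, 88.0% G or C and 12 GC boxes, some of which share bases. The Kmt2d window held 27 CpG, 62.7% G or C and 4 GC boxes. Kdm6a had 21 CpG and 1 GC box, and Rbbp5 16 CpG and 0 GC boxes. Both methyltransferase genes thus start in CpG-dense sequence, against a median of 7 CpG over the 32851 mouse promoters of the same length. GGGCGG occurred on either strand of 35.7% of these promoters. Such density was not particular to this pair, since the Paxip1 window held 28 CpG, that of Wdr5 22 and that of Pagr1a 15. The Paxip1 and Wdr5 windows held 2 GC boxes each, and those of Pagr1a and Ncoa6 held 0. The RefSeq window of Ncoa6 lay inside the gene as GENCODE draws it, with 1 CpG, so that it describes an internal start. Of the other motifs searched on both strands, the E-box CACGTG (7.15% of promoters) was found for Kdm6a alone, and CCAAT (37.4%) and TATAAA (13.6%) for Ncoa6 alone. The ETS motif CCGGAAG (8.86%) was found in none of the 8 windows. Promoters of 8 of the 10 members were matched, without Ash2l and Kdm6b.

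Each library held 33143619 to 45140743 read pairs on genes, and the upper limit for a gene with no read pair, set at 3 read pairs for counting error only, was worth 2.54 to 3.48 normalized counts. A normalized count is the number of read pairs on a gene divided by 1 size factor per library. All 9 LSK marker genes (among them Kit, Ly6a and Cd34) were above 0 in all 7 libraries, and their share of all normalized counts was 0.282 to 0.328% in wild-type. In the libraries labelled PROSER1 KO it was 0.289 to 0.302%. All 11 markers of B-lineage and plasma cells, which should be removed by the lineage gate, were also above 0 in every library. Their share was 3.60 to 7.86% in wild-type, against 3.38 to 4.84% in PROSER1 KO libraries. All markers of T and NK cells (6), granulocytes and monocytes (8), erythroid cells and megakaryocytes (6) and mast cells and basophils (4) were above 0 in all libraries too, each list with at most 0.0569% of the total. None of these 44 marker genes was differentially expressed, as defined below, beside 0.258% of all tested genes. At such a share, the lack of calls among 44 genes does not show that the cell composition was equal. PROSER1 KO replicate 1 stood apart for T cell genes, with Cd3g at 696.8 normalized counts against 20.9 to 52.9 in the other libraries and Cd3e at 197.2 against 5.75 to 24.0. The groups did not overlap for 4 of the 44 markers (adjusted p from 0.28 to 0.488 with limma). Of these, Mecom, a stem cell gene (0.844-fold), and Mcpt8 lay below wild-type in PROSER1 KO, and Csf1r and Cpa3 above. The groups did not overlap either for 5.17% of all tested genes with PROSER1 KO above and 4.83% with PROSER1 KO below. The part of other cells in the values that follow was not tested. In bulk RNA, fewer cells of a type and less RNA per cell cannot be told apart.

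Proser1 itself (ENSMUSG00000049504) had 2019, 2153, 2103 and 2077 normalized counts in the wild-type libraries, against 2464, 2359 and 2338 with PROSER1 KO. Its mRNA was therefore not lower there, and all 3 libraries lay above all wild-type libraries (log2 fold change 0.19, SE 0.0486, adjusted p = 0.204 with limma). With DESeq2 the adjusted p of Proser1 was 0.0901. The direction of each difference rests on the labels alone, and PROSER1 KO stands for the libraries with that label throughout.

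Of the 10 members, 9 were abundant enough to be tested and none was differentially expressed, which was defined as an adjusted p-value under 0.05 and a change of more than 1.5-fold. Over all 16251 tested genes, 42 met this rule (percentage called, 0.258). Fold changes were estimated with limma on log2(normalized count + 1), and each is given for PROSER1 KO against wild-type. They ran from -0.06 for Kdm6b to 0.12 for Rbbp5, with a median of -0.0019 for the members and 0.0015 for all tested genes, and 4 lay above and 5 below 0. Rbbp5 was the only member (1) with an unadjusted p-value under 0.05, beside 9.73% of all tested genes. The 95% intervals of all 9 stayed within a 1.5-fold change in either direction, the lowest bound being 0.823-fold and the highest 1.29-fold, while this held for 65.7% of all tested genes. With edgeR and DESeq2 on the recovered read pairs, 0 members were called as well, beside 0.246% and 0.63% of the genes these tools tested. Without the minimum mean, limma called 0 members beside 0.176% of genes.

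**Figure D1:**
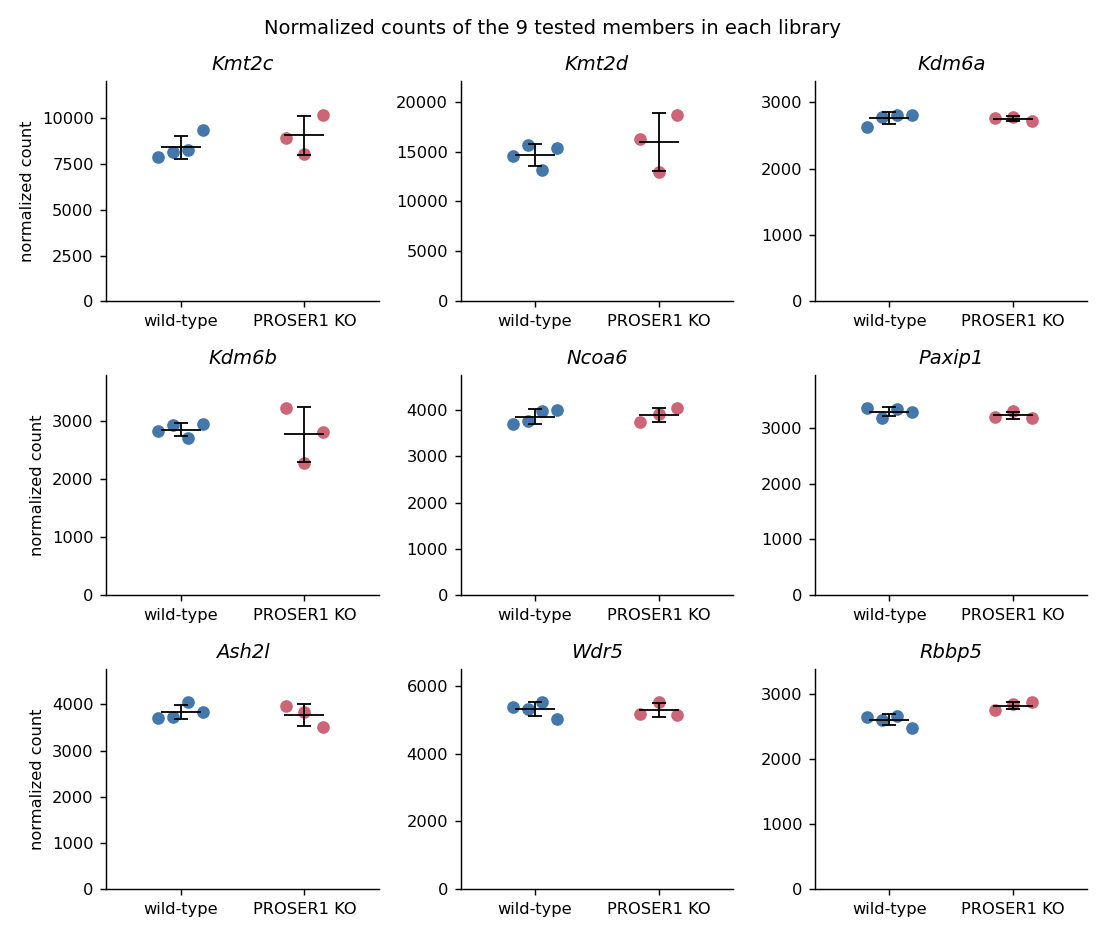
Normalized counts (linear axes from 0) of the 9 tested members in each library, with wild-type in blue (n = 4) and PROSER1 KO in red (n = 3); horizontal bars are means and whiskers SD. Rbbp5 alone shows all PROSER1 KO points above all wild-type points, and Kmt2d and Kdm6b have the widest spread among PROSER1 KO libraries relative to their means (coefficients of variation 18.1% and 17.0%).

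The methyltransferases come first. Kmt2c (ENSMUSG00000038056, chr5:25271798-25498783, minus strand, GRCm38) spans 227 kb and has 20.3 kb of exon. It had 7895, 8178, 8249 and 9351 normalized counts in the wild-type libraries, against 8941, 8065 and 10203 with PROSER1 KO. The groups overlapped, since PROSER1 KO replicate 2 lay below 3 of the wild-type libraries and only replicate 3 lay above them all. The log2 fold change was 0.10 (SE 0.0841, 95% interval -0.09 to 0.29, adjusted p = 0.731 with limma). It was 0.0156 without PROSER1 KO replicate 3 and 0.19 without replicate 2.

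Kmt2d (ENSMUSG00000048154, chr15:98831669-98871204, minus strand) has almost the same exon length (19.9 kb) in a much shorter gene of 39.5 kb. The wild-type libraries had 14518, 15661, 13114 and 15337 normalized counts, the PROSER1 KO libraries 16275, 12931 and 18698. The lowest and the highest of the 7 values were both from PROSER1 KO, replicates 2 and 3. The log2 fold change was 0.11 (SE 0.113, interval -0.14 to 0.37, adjusted p = 0.800 with limma). It turned to -0.0116 without PROSER1 KO replicate 3 and came to 0.25 without replicate 2. The coefficient of variation of Kmt2d was 7.75% in wild-type and 18.1% in PROSER1 KO, and that of Kmt2c 7.60% and 11.8%.

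On a per-length scale Kmt2d was the more abundant of the pair. It reached 735 ± 57.0 normalized counts per kb of exon in wild-type (SD, n = 4) and 801 ± 145 in PROSER1 KO (SD, n = 3), against 415 ± 31.6 and 447 ± 53.0 for Kmt2c. The ratio of Kmt2c to Kmt2d per kb lay between 0.513 and 0.618 in all 7 libraries, so that the order of the pair was the same in each. The log2 ratio of their normalized counts was -0.80 ± 0.129 in wild-type and -0.81 ± 0.109 in PROSER1 KO, a difference of -0.0066 (two-sided exact permutation test over 35 splits, p = 0.943, also after adjustment over the 2 ratios tested, with 0.0286 the smallest p possible). Summed per kb, the pair came to 1150 ± 73.8 in wild-type and 1248 ± 198 in PROSER1 KO. The sum was lowest (1046) and highest (1441) in PROSER1 KO libraries.

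Of the demethylases, Kdm6a (ENSMUSG00000037369, chrX:18162575-18279936, plus strand) encodes UTX, the subunit that links the complex to removal of H3K27 methylation. The wild-type libraries had 2621, 2781, 2814 and 2808 normalized counts, the PROSER1 KO libraries 2764, 2777 and 2712. All 3 PROSER1 KO values fell inside the wild-type range, whose lowest value, wild-type replicate 1, stood apart from the other three. The log2 fold change was -0.0019 (SE 0.0467, interval -0.11 to 0.10, adjusted p = 0.993 with limma), and its sign changed with several single libraries left out. Without wild-type replicate 1, the 3 PROSER1 KO values lay below the remaining wild-type values; at that setting the groups did not overlap for 13.4% of all tested genes.

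UTX escapes X inactivation, and its Y-linked relative Uty encodes a protein with little demethylase activity. RNA of other sex-linked genes is therefore given beside it. Xist, the RNA of the inactive X, ranged from 1249 to 3003 normalized counts in wild-type and from 1012 to 1841 in PROSER1 KO, and the Y-linked genes Uty, Ddx3y, Eif2s3y and Kdm5d were expressed in all 7 libraries. Xist RNA and RNA of Y-linked genes were thus both present in each library. Uty had 1143, 1319, 1447 and 1250 normalized counts in the wild-type libraries, against 1382, 1417 and 1441 with PROSER1 KO, with overlapping groups. Eif2s3y, a translation initiation factor gene on the Y, lay above wild-type in all 3 PROSER1 KO libraries (log2 fold change 0.13, adjusted p = 0.396 with limma). The other Y genes did not separate, and neither did the X-linked escape genes Kdm5c, Eif2s3x and Ddx3x (log2 fold changes from -0.07 to 0.06). The log2 ratio of Kdm6a to Uty was 1.10 ± 0.107 in wild-type and 0.96 ± 0.0446 in PROSER1 KO, and per kb of exon Kdm6a exceeded Uty by 2.20 to 2.68 times. This ratio was given no test. Summed per kb, Kdm6a and Uty came to 460.5 ± 22.6 in wild-type and 472.6 ± 3.02 in PROSER1 KO. With Xist as a covariate the log2 fold change of Kdm6a was 0.0047.

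Kdm6b (ENSMUSG00000018476, chr11:69398508-69413675, minus strand) encodes JMJD3, a demethylase known as a gene that is rapidly induced by inflammatory signals. The wild-type libraries had 2834, 2930, 2717 and 2953 normalized counts, the PROSER1 KO libraries 3223, 2282 and 2825. PROSER1 KO thus held both the highest and the lowest library, and the coefficient of variation was 3.75% in wild-type and 17.0% in PROSER1 KO. The log2 fold change was -0.06 (SE 0.101, interval -0.28 to 0.17, adjusted p = 0.908 with limma), and 0.08 without PROSER1 KO replicate 2. The log2 ratio of Kdm6a to Kdm6b was -0.05 ± 0.0709 in wild-type and 0.001 ± 0.258 in PROSER1 KO (difference 0.05, two-sided exact permutation p = 0.743, 0.943 adjusted over the 2 ratios). Per kb of exon, Kdm6a came to 0.801 ± 0.0401 of Kdm6b in wild-type and 0.839 ± 0.154 in PROSER1 KO. The antisense gene Kdm6bos shares 4.11% of the Kdm6b exons and had at most 5.22 normalized counts, and Gm42585 shares 1.35% of those of Kmt2c and had at most 0.902.

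Among the subunits that set these complexes apart, Ncoa6 (ENSMUSG00000038369, chr2:155390656-155473894, minus strand) encodes a nuclear receptor coactivator. It had 3699, 3768, 3980 and 4005 normalized counts in the wild-type libraries, against 3744, 3916 and 4038 with PROSER1 KO. The values interleaved (log2 fold change 0.01, SE 0.050, interval -0.10 to 0.13, adjusted p = 0.958 with limma).

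Paxip1 (ENSMUSG00000002221, chr5:27740080-27791691, minus strand) encodes PTIP, a BRCT-domain protein that also acts in DNA repair and in antibody class switching. The wild-type libraries had 3352, 3177, 3340 and 3292 normalized counts, the PROSER1 KO libraries 3194, 3304 and 3184. This was the narrowest range of the 9 tested members over the 7 libraries (0.078 on the log2 scale). The log2 fold change was -0.03 (SE 0.0441, interval -0.13 to 0.07, adjusted p = 0.890 with limma). The groups overlapped, and the sign was the same under every alternative run.

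Pagr1a (ENSMUSG00000030680, chr7:127015033-127017352, minus strand) encodes PA1, which binds PTIP directly. It was listed at 0 in 6 libraries and at 3.45 in wild-type replicate 3, which is 3 read pairs. Of its 1.43 kb of exon in GENCODE M21, 98.7% lies inside exons of other genes on the same strand, and 18 bases do not. Gm42742, a protein-coding gene model that runs through Prrt2 and Pagr1a, covers 1412 of these bases, and Pagr1b covers 347. Read pairs that overlap exons of more than 1 gene are left uncounted by featureCounts unless it is set otherwise, and its setting is not given in the sources used here. The part of this overlap in the zeros was not tested. With no library above 3 read pairs, no log2 ratio of Paxip1 to Pagr1a was computed and nothing can be said of the level of PA1 mRNA.

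**Figure D2:**
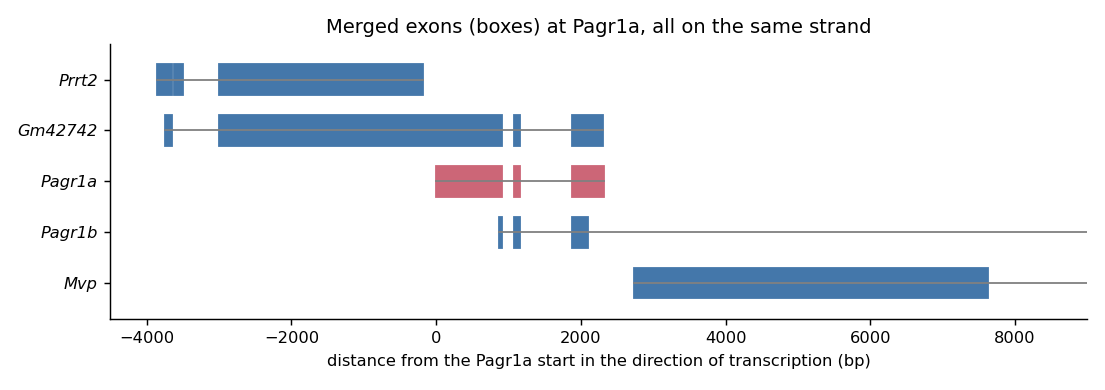
Merged exons (boxes) of Pagr1a and its neighbours on the same strand, against distance in base pairs from the start of Pagr1a in the direction of transcription. Nearly all of Pagr1a (red) lies under the exons of Gm42742, with 18 bases free.

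The genes that share exons with Pagr1a had few or no counts as well. Gm42742 and Pagr1b share exons on the same strand with Pagr1a and with other neighbours. The limit given for Pagr1a therefore holds for their counts and for those of Prrt2, which need not measure expression. Pagr1b was at 0 in all 7 libraries. Gm42742 had 12.5, 11.7, 8.05 and 13.9 normalized counts in the wild-type libraries, against 1.04, 2.54 and 1.92 with PROSER1 KO, where all 3 values lay below wild-type and at or under 3 read pairs. Its mean was under the minimum of 10, so that it was not tested with the members. Without that filter its log2 fold change was -2.16 (adjusted p = 0.204 with limma) and with DESeq2 -2.63 (adjusted p = 0.179), and both rest on few read pairs. Prrt2, which overlaps Gm42742 but not Pagr1a and encodes a synaptic protein, had 18.8 ± 8.65 normalized counts in wild-type and 13.8 ± 9.90 in PROSER1 KO.

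In the shared core, Wdr5 (ENSMUSG00000026917, chr2:27515157-27536535, plus strand) encodes the WD-repeat protein that holds the methyltransferase and RBBP5 together. It had 5382, 5336, 5525 and 5036 normalized counts in the wild-type libraries, against 5174, 5527 and 5161 with PROSER1 KO, with overlapping groups (log2 fold change -0.0087, SE 0.049, interval -0.12 to 0.10, adjusted p = 0.975 with limma).

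Ash2l (ENSMUSG00000031575, chr8:25815996-25847694, minus strand) encodes the subunit that, with RBBP5, stimulates the catalytic SET domain. The wild-type libraries had 3712, 3737, 4048 and 3834 normalized counts, the PROSER1 KO libraries 3957, 3842 and 3505. Only PROSER1 KO replicate 3 lay below the wild-type range (log2 fold change -0.03, SE 0.0563, interval -0.15 to 0.10, adjusted p = 0.927 with limma).

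Rbbp5 (ENSMUSG00000026439, chr1:132477365-132505659, plus strand) had 2648, 2602, 2666 and 2479 normalized counts in the wild-type libraries, against 2752, 2836 and 2870 with PROSER1 KO. It was the only member without overlap between the groups (1 of 9, with PROSER1 KO above, beside 5.17% of all tested genes with PROSER1 KO above and 4.83% with PROSER1 KO below). Its mean was 1.08-fold that of wild-type. Its log2 fold change of 0.12 (SE 0.0476, interval 0.01 to 0.23) had an unadjusted p of 0.0340 and an adjusted p of 0.457 with limma. It did not pass the test, and omitting any single library gave log2 fold changes of 0.10 to 0.14.

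**Figure D3:**
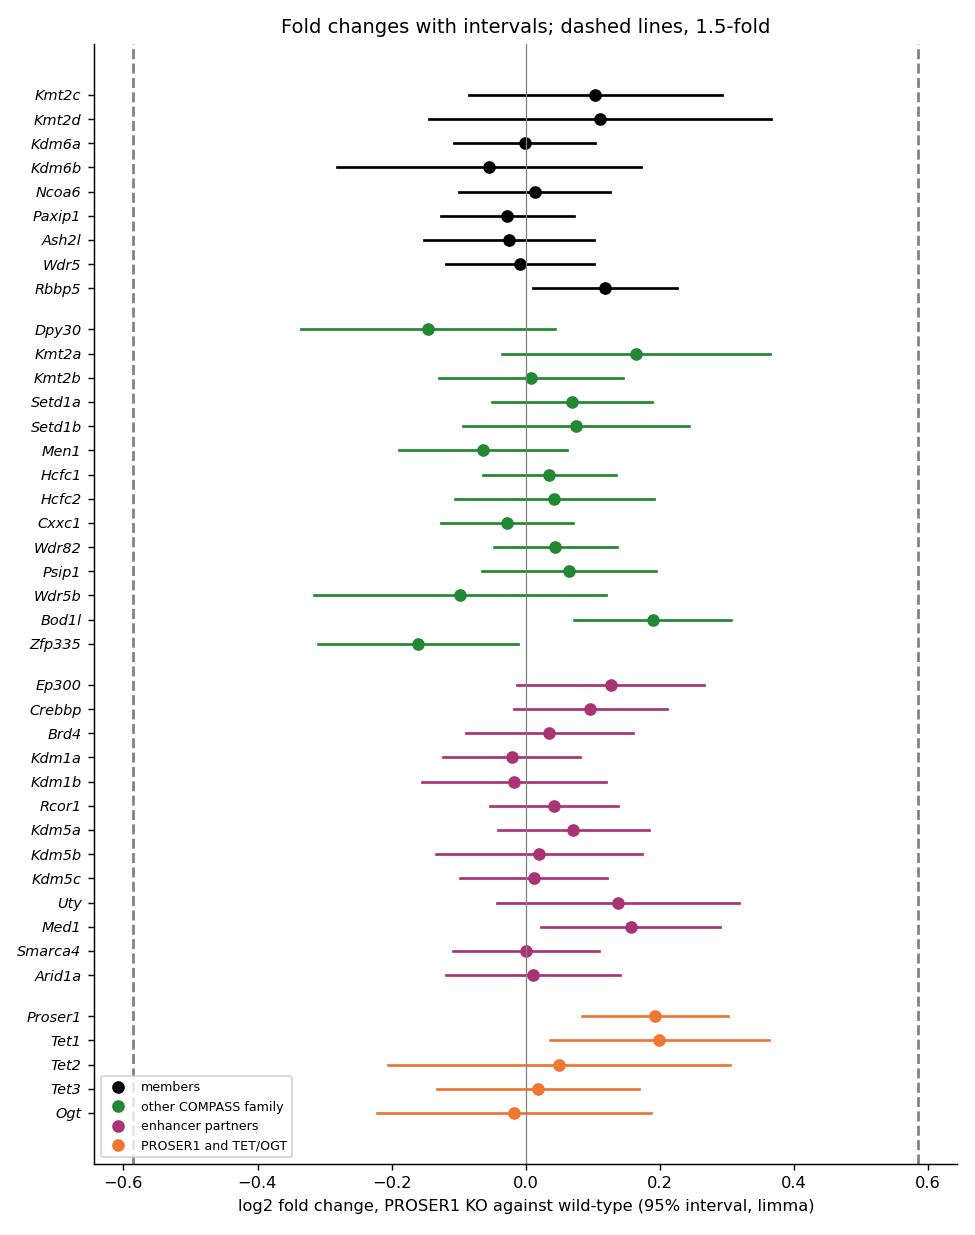
Log2 fold change, PROSER1 KO against wild-type, with the 95% interval from limma, for the 9 tested members (black), 14 other COMPASS family genes (green), 13 enhancer partners (purple) and PROSER1 with the TET and OGT genes (orange). Dashed lines mark a 1.5-fold change, and no interval reaches them.

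Per kb of exon, the members fell into few distinct levels. Wdr5 was the most abundant with 1479 ± 57.2 normalized counts per kb in wild-type and 1470 ± 57.6 in PROSER1 KO, at percentile 91.9 of the tested protein-coding genes, and its lowest library (1400) lay above the highest of Kmt2d (938). Kmt2d (percentile 80.5) and Rbbp5 (percentile 78.0, with 661 ± 21.5 and 717 ± 15.5 per kb) came next and overlapped in range, with Kmt2d above in 5 of 7 libraries. The lowest Rbbp5 library (631) was above the highest of Kmt2c (503).

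Kmt2c, Ash2l, Kdm6b and Ncoa6 then formed a group whose neighbours in the order did not separate. They had wild-type means of 415, 427, 411 and 397 normalized counts per kb and percentiles between 62.1 and 64.4. Kdm6a (329 ± 10.8 in wild-type, 328 ± 4.11 in PROSER1 KO, percentile 56.1) lay below Ncoa6 in all 7 libraries. It lay above Paxip1 (320 ± 7.79 and 314 ± 6.46, percentile 55.2) in 6 of 7. WDR5 mRNA was thus more than 4 times as abundant per kb as that of UTX or PTIP, in RNA and on annotated exon length only.

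**Figure D4:**
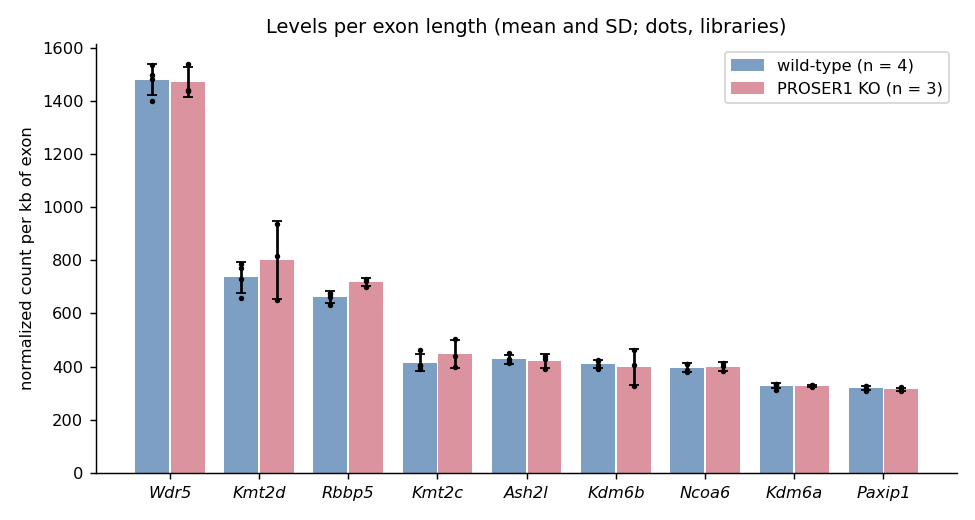
Level of each tested member as normalized counts per kb of merged exon (linear axis from 0), mean with SD as whiskers and 1 dot per library, in wild-type (blue, n = 4) and PROSER1 KO (red, n = 3). Wdr5 stands alone at the top, followed by Kmt2d and Rbbp5, and the other members lie between 309 and 503 in all libraries.

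Across the 7 libraries, the members did not deviate as a block. Kmt2c and Kmt2d were the pair most alike (Pearson r = 0.804 over 7 libraries, on log2 values). Wdr5 ran opposite to Kmt2c (r = -0.786) and to Kmt2d (r = -0.765), as did Paxip1 to Kmt2d (r = -0.777). All 7 libraries enter each r, groups pooled, as a description without a test.

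Kmt2c and Kmt2d moved with the median of genes with long merged exons (long genes), but merged exon length alone did not sort the members. Exons were merged over all annotated transcripts of a gene. The length of the transcripts present in these cells was not measured. Over the 1281 tested genes with at least 10 kb of exon, the median log2 deviation from the gene mean was lowest in PROSER1 KO replicate 2 (-0.0258) and highest in PROSER1 KO replicate 3 (0.0522), the same libraries in which Kmt2d was lowest and highest. For genes with under 2 kb of exon (3831) the deviations ran the other way (r = -0.915 with the long genes). Kmt2c correlated with the long-gene median at r = 0.986 and Kmt2d at r = 0.873, which placed them at percentiles 99.9 and 95.3 among the long genes themselves. An r above 0.5 was seen for 35.8% of the long genes and 17.3% of all tested genes. The KMT2 relatives Kmt2a (r = 0.925) and Kmt2e (r = 0.959), named after their values were seen, did the same. Paxip1, with 10.3 kb of merged exon a long gene by this measure, ran the other way (r = -0.578, percentile 3.90 among the long genes). So did Wdr5 with 3.60 kb (r = -0.857) and Ash2l with 8.97 kb (r = -0.507). Kdm6a (r = 0.009) and Rbbp5 (r = 0.125) were near 0, and Kdm6b (r = 0.475) and Ncoa6 (r = 0.464) lay between.

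The long-gene median itself spanned 0.078 on the log2 scale, while Kmt2c spanned 0.37 and Kmt2d 0.53. With the long-gene median as a covariate, chosen after the data had been seen, the log2 fold change was 0.01 for Kmt2c and -0.0044 for Kmt2d. Both genes are part of that median and follow it closely, so values near 0 were built in and are no result about them. Rbbp5 had 0.13 (adjusted p = 0.347 with limma), and 0 members were called, beside 29 of 16251 tested genes. Long genes as a class had a median log2 fold change of 0.02. What moved the long genes was not tested.

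**Figure D5:**
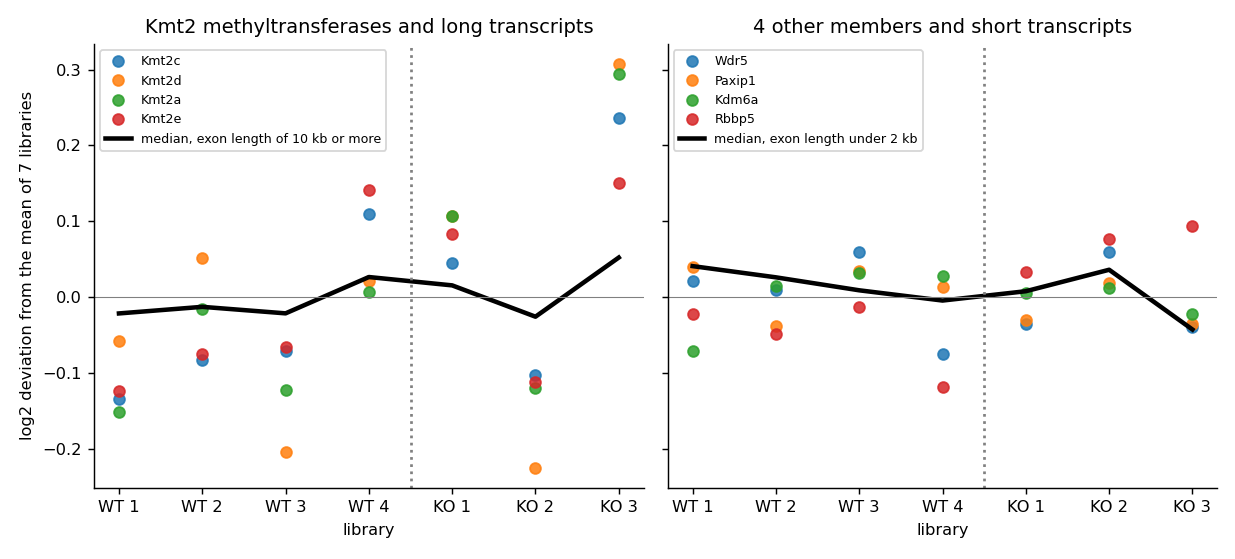
Log2 deviation from the mean of the 7 libraries, per library, for Kmt2c, Kmt2d, Kmt2a and Kmt2e with the median of genes of at least 10 kb of exon (left, black line), and for Wdr5, Paxip1, Kdm6a and Rbbp5 with the median of genes under 2 kb (right, black line), although none of these 4 members is that short. On the left, all 4 genes are highest in PROSER1 KO replicate 3; on the right, Rbbp5 alone is higher in all PROSER1 KO libraries than in wild-type.

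By the same measure over the 7 libraries, the tested genes most like Kmt2c were Zfyve26, Col5a1 and Zfp715 (each r = 0.989), and 75 genes exceeded an r of 0.9. Those most like Kmt2d were Gm38190 (r = 0.979), the H3K36 methyltransferase gene Nsd3 (r = 0.974) and the small nucleolar RNA Snord71 (r = 0.967). Those most like Kdm6a were Polr3b (r = 0.992), Calr3 (r = 0.969) and Tmem129 (r = 0.968). With 7 libraries and 16251 genes such values arise for many genes, and they are given as a description.

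The other genes of the COMPASS family numbered 14 and all were tested. They comprise DPY30 of the core, the remaining methyltransferases and the subunits peculiar to them, such as menin and CXXC1. None was called (0 of 14, beside 0.258% of all tested genes), 9 lay above and 5 below 0, and the median log2 fold change was 0.04. The unadjusted p-value was under 0.05 for 2 of them, which were also the only ones whose groups did not overlap. That is 2 of 14, beside 9.73% of all tested genes with such a p-value, and 5.17% (PROSER1 KO above) and 4.83% (below) without overlap. Bod1l, whose product belongs to the SETD1A complex and protects replication forks, had 5316, 5506, 5315 and 5651 normalized counts in the wild-type libraries, against 6457, 5791 and 6395 with PROSER1 KO (log2 fold change 0.19, adjusted p = 0.247 with limma). With DESeq2 the adjusted p of Bod1l was 0.0557, which did not pass either. Zfp335, a zinc finger protein that binds core subunits, had 2129, 2012, 1989 and 2036 in the wild-type libraries, against 1843, 1664 and 1984 with PROSER1 KO (log2 fold change -0.16, adjusted p = 0.465 with limma). PROSER1 KO replicate 3 lay just under the wild-type range, and the log2 fold change was -0.09 without PROSER1 KO replicate 2. The remaining 12 log2 fold changes lay between -0.15 and 0.16.

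Among 13 enhancer partners, which were acetyltransferases, readers, remodellers, H3K4 demethylases and Uty, none was called either, beside 0.258% of all tested genes. Of these, 11 lay above and 2 below 0 (median log2 fold change 0.03), and none separated the groups. Over all tested genes, 8219 lay above and 8032 below 0. Med1, a Mediator subunit at enhancers, was the only partner with an unadjusted p-value under 0.05 (0.0259 with limma), beside 9.73% of all tested genes. It had 4355, 4657, 4480 and 4804 normalized counts in the wild-type libraries, against 5122, 4729 and 5458 with PROSER1 KO (log2 fold change 0.16, adjusted p = 0.425 with limma).

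Of PROSER1 and its partners Tet1, Tet2, Tet3 and Ogt, 0 of 5 were called, beside 0.258% of all tested genes. Tet1, a DNA demethylase gene, had 2620, 2945, 2890 and 3079 normalized counts in the wild-type libraries, against 3329, 3027 and 3582 with PROSER1 KO, with overlapping groups (log2 fold change 0.20, unadjusted p = 0.0222, adjusted p = 0.407 with limma). Proser1 itself had an unadjusted p of 0.00301.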

How the data were processed

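The 7 RNA libraries of LSK cells (wild-type, n = 4; PROSER1 KO, n = 3) were grouped by their labels. Per the labels, polyA RNA was made into libraries with a directional kit. The authors trimmed reads with Trimmomatic, mapped them to mm10 (GRCm38.p6) with STAR, counted read pairs with featureCounts and divided them by 1 DESeq2 size factor per library; versions and the strand setting are not given in the sources used here. The methods name GENCODE M25, the identifier header release M10. The deposited values are thus a normalized count signal per gene. Read pairs were recovered from them (100% of values whole within 0.01), and the table had 0 columns that belong to no sample used.

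limma 3.58.1 in R 4.3.3 (lmFit, eBayes with trend) was run on log2(normalized count + 1). The 16251 genes whose mean reached 10 were tested, with Benjamini-Hochberg adjustment over all of them. Intervals are 95% intervals from limma. Ratios were tested by two-sided exact permutation over 35 splits. Alternatives were other pseudocounts (0.1, 10), other minimum means (none, 50), no trend, robust variance, quantile and TMM normalization, edgeR 4.0.16, DESeq2 1.42.0, no fold minimum, a replicate block, Xist or the long-transcript median as covariate (the latter added after the data had been seen) and each library left out. The fits were tested on simulated data. Exon lengths, overlaps and positions come from GENCODE M21 (GRCm38), promoters from RefSeq (GRCm38.p6). Exon lengths are merged over all annotated transcripts of a gene. The long-transcript median is the median over genes with at least 10 kb of merged exon.

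Members and lists were chosen with earlier results of these data known. Named genes were the members, Proser1, the sex genes, genes of the other lists with an unadjusted limma p under 0.05, the 3 genes of highest correlation with Kmt2c, Kmt2d and Kdm6a, and genes that overlap members.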

Additional observations from a re-analysis of the deposited data

Results flagged for a closer look

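Among 17 groups of 4 wild-type libraries examined (Dixon's test, critical value 0.829), wild-type replicate 1 stood apart from the other 3 libraries for Kdm6a, with 2621.4 normalized counts. Chance sets such a library apart in about 1 of 20 groups.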

How the results depend on the processing

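Under all alternatives run, 0 members, 0 other COMPASS family genes, 0 enhancer partners and 0 of PROSER1 and its partners were called. Of 180 member log2 fold changes over 20 settings, 162 kept their sign and 18 did not. The lowest adjusted p was 0.334, so that no member passed the threshold. With the long-transcript covariate, signs turned for Kmt2d (-0.0044), Ncoa6 (-0.0040) and Wdr5 (0.0263), and with Xist as a covariate for Kdm6a (0.0047). For Kmt2c and Kmt2d, values near 0 were built into the long-transcript covariate, which both genes follow closely. With single libraries left out, log2 fold changes ranged from -0.0116 to 0.2544 for Kmt2d (turned without PROSER1 KO replicate 3), -0.1701 to 0.0789 for Kdm6b (turned without PROSER1 KO replicate 2), -0.0258 to 0.0083 for Kdm6a, -0.0120 to 0.0426 for Ncoa6, -0.0618 to 0.0256 for Ash2l and -0.0410 to 0.0098 for Wdr5. The difference in the Kmt2c to Kmt2d log2 ratio ranged from -0.0693 to 0.0370 and that of Kdm6a to Kdm6b from -0.0876 to 0.1647 (turned without PROSER1 KO replicate 2). The number of members without overlap between groups was 1 to 2, with 2 of 9 without wild-type replicate 1 (Kdm6a and Rbbp5) and without PROSER1 KO replicate 2 (Kmt2d and Rbbp5), beside 13.4% and 19.4% of all tested genes at these settings. The cause of these turns was not tested. Kmt2c, Paxip1 and Rbbp5 kept their sign in all alternatives, but Kmt2c ranged from 0.0106 (long-transcript covariate) to 0.1851 (without PROSER1 KO replicate 2). With single libraries left out, its lowest value was 0.0156 (without PROSER1 KO replicate 3).

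The labels do not say whether the replicate numbers pair the libraries. The deviations of same-numbered libraries correlated at 0.023, 0.058 and -0.106, and those of different-numbered libraries at -0.131 to 0.142. With so few libraries, these values cannot decide whether a pairing exists. With the replicate number as a block, Kdm6a had a log2 fold change of 0.0072 and the Kmt2c to Kmt2d ratio a difference of 0.0220 (exact permutation p = 0.750, where 3 pairs allow no p below 0.25, so that no call was possible). Wild-type replicate 4 has no partner and drops out of the blocked fits, so that both values equal those without it. With the block, 37 genes in all were called. Over all genes, the number called was 42 with the chosen fit, 17 without trend, 80 with robust variance estimates and 165 with DESeq2, and 23 to 42 with single libraries left out (28 without wild-type replicate 1, 23 without PROSER1 KO replicate 2). Pagr1a was at or under 3 read pairs in all 7 libraries.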
